A study of Mus musculus with 12 samples.

Results

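Cyclin G2 (Ccng2) and 7 genes tied to FOXO transcription factors were followed in mouse embryonic stem cells in which a lentiviral hairpin targeted the long noncoding RNA TUNA. The 8 genes were taken as a fixed list of rows from the deposited table of 37477 gene rows: the factors Foxo1 and Foxo3, and Ccng2, Sesn1, Sesn3, Irs2, Txnip and Pik3ip1 as known targets or genes that respond to low growth factor input. All 8 were in the table. The list was chosen with earlier results of these data known. The cells were CCE, a line of mouse embryonic stem cells, grown with serum and LIF, transduced with a pLKO.1-puro lentivirus and kept in puromycin from the day after transduction. The 4 groups of 3 libraries were TUNA hairpin (shTUNA) at day 2, at day 4 and at day 6 after transduction, and control hairpin (shControl) at day 2. All groups therefore carry an integrated hairpin vector and the drug selection, and the hairpin and the time cannot be told apart at days 4 and 6, since the control libraries analysed here are all of day 2. No label says that replicates are separate cultures; p-values then measure the spread of these libraries only, and that spread may be technical.

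FOXO factors sit at the end of the insulin and growth factor pathway. When a receptor signals through insulin receptor substrates and PI3 kinase, the kinase AKT phosphorylates FOXO proteins, which are then held by 14-3-3 proteins in the cytoplasm. When the signal is low, FOXO proteins stay in the nucleus and switch on genes that slow the cell cycle, handle oxidative stress and feed back on the pathway. In human embryonic stem cells FOXO1 is known to be needed for the expression of the pluripotency factors OCT4 and SOX2.

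Values are normalized counts, the authors' read counts scaled between libraries, in which 1 read was worth 0.651 to 1.42 units. The depth recovered from these steps was 3522188 to 5652547 reads per library, of which 60.4% to 76.9% lay in 3 rows led by Rnu3a, a small nucleolar RNA gene, leaving 936437 to 2024786 reads for all other genes. The targeted RNA had its row, under its older symbol 2810011L19Rik, listed at 0 in all 12 libraries, so the table does not check the knockdown. The stem cell markers were present in every library: 8 marker genes had summed levels of 2389 to 2578 (day 2), 2290 to 2434 (day 4) and 1721 to 2094 (day 6) under the TUNA hairpin, and of 2680 to 2937 normalized counts in the control. Against the control 0, 2 and 3 of these 8 were called lower on the 3 days, and 0 higher. Of all tested genes 0.549%, 7.76% and 3.15% were called lower on these days, and 0.412%, 6.99% and 3.07% higher. A list of 9 fibroblast markers summed to 14.5 to 36.8, 21.8 to 30.4 and 244 to 332 at days 2, 4 and 6, against 11.9 to 15.8 in the control, while its defining members Col1a1, Col1a2, Col3a1, Dcn and Lum were at 0 in all 12 libraries. The rise at day 6 came from Acta2 and Tagln, with means of 140.3 and 149.3 against 0.3676 and 6.24 in the control. The remaining members, Thy1 and Pdgfrb, had lower means at day 6 (0.5196 and 2.775) than in the control (1.863 and 5.196). An endoderm list peaked at day 4 (15.0 to 21.0, against 4.6 to 8.63 in the control) with Afp and Ttr at 0 throughout, and 6 neural markers in the table lay at 18 to 44.1 in all groups. What part these markers have in the results below was not tested. In such bulk RNA, fewer cells of a type and less RNA per cell cannot be told apart.

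Of the 8 genes, 7 had their highest mean at day 4 of the TUNA hairpin, and for 5 of these the day 4 libraries lay above all others. Over all 15783 rows above 0 in at least 1 library, 31.7% had their highest mean at day 4 and 3.02% had day 4 libraries above all others. Since the list was chosen with earlier results of these data known, these counts and the counts of calls below are no test of it. Ccng2, Txnip and Foxo3 rose at day 4 against the control, by 7.28-fold, 2.22-fold and 1.45-fold in group means. Ccng2, Txnip and Sesn1 fell at day 6 against day 4. Irs2 had its highest mean at day 6, and the day 4 libraries of Sesn1 and Foxo1 overlapped those of other groups.

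Of the 8 genes, 5 passed the filter on low values (10 or more normalized counts in 3 or more libraries) and were tested with limma over 8739 genes, with Benjamini-Hochberg adjustment and a threshold of 0.05. Sesn3, Irs2 and Pik3ip1 missed the filter and are given from a fit of all 15783 rows above 0 in at least 1 library. At day 2 against the control 0 of the 5 passed (1 had an unadjusted p under 0.05, and limma-voom called 0), where 0.961% of all tested genes did (0.412% higher, 0.549% lower). At day 4 against the control 3 of the 5 were higher and 0 lower, where 14.7% of all tested genes were called (6.99% higher, 7.76% lower). At day 6 against the control 0 of the 5 passed (3 had an unadjusted p under 0.05, and limma-voom called 0), where 6.21% of tested genes did (3.07% higher, 3.15% lower). Between days, 2 of the 5 were higher at day 4 than at day 2, where 7.66% of tested genes were called (3.27% higher, 4.38% lower). At day 6, 3 of the 5 were lower than at day 4 (5.58% of tested genes called, 2.64% higher and 2.94% lower) and 1 of the 5 was lower than at day 2 (4.5% called, 1.96% higher and 2.54% lower). The median log2 change of the 5 genes was 0.61 at day 4 against the control and -1.16 at day 6 against day 4, beside -0.01 and 0.01 over all tested genes. These comparisons share groups: the same control libraries stand in the first 3, and the same day 4 libraries in both steps around day 4.

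Ccng2 encodes cyclin G2, an unconventional cyclin that is high in resting cells, slows the cell cycle and is a direct FOXO target. It had 32.9, 22.6 and 29.9 normalized counts at day 2, 123, 108 and 144 at day 4, and 15.0, 11.1 and 9.29 at day 6 of the TUNA hairpin, against 17.4, 16.9 and 17.1 in the control. No 2 of the 4 groups overlapped, and the order was day 4, day 2, control, day 6. Between 9.8 and 29.4 reads stood behind each value outside day 4, and 94.8 to 188 reads at day 4. Ccng2 rose at day 4, with a mean of 125 ± 18.2 against 17.2 ± 0.268 in the control (SD, n = 3; a log2 change of 2.78 ± 0.23 SE with adjusted p 2.1e-06 by limma with Benjamini-Hochberg). It also rose at day 4 against day 2 (2.10 ± 0.23, adjusted p 3.41e-05) and fell after that, with 11.8 ± 2.94 at day 6 against 125 ± 18.2 at day 4 (log2 change -3.31 ± 0.23, adjusted p 4.27e-07 by limma). Day 6 was also under day 2 of the same hairpin, which had 28.5 ± 5.27 (log2 change -1.21 ± 0.23, adjusted p 0.00642 by limma). Day 2 stood above the control and day 6 below it without passing the test, at log2 changes of 0.68 ± 0.23 (adjusted p 0.223) and -0.53 ± 0.23 (adjusted p 0.221).

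Txnip encodes the thioredoxin-interacting protein, an arrestin-like protein that binds thioredoxin, lowers glucose uptake and responds to glucose through the MondoA and ChREBP factors. It had 139, 163 and 139 normalized counts at day 2, 358, 348 and 288 at day 4, and 103, 133 and 106 at day 6, against 149, 152 and 147 in the control. The day 4 libraries stood above all others, the day 2 and control libraries overlapped, and the day 6 libraries lay below both. Txnip rose at day 4 with 331 ± 37.7 against 149 ± 2.73 in the control, a log2 change of 1.14 ± 0.15 (adjusted p 0.000107 by limma), and against day 2 by 1.17 ± 0.15 (adjusted p 0.000154). At day 6 it fell to 114 ± 16.5, against 331 ± 37.7 at day 4 (log2 change -1.54 ± 0.15, adjusted p 1.42e-05 by limma). The difference of day 6 from the control, -0.40 ± 0.15 on the log2 scale, did not pass (adjusted p 0.139). Txnip is overlapped on the other strand by the antisense gene Gm15441, whose own row did not exceed 7.09 normalized counts in any library. The sources used here do not say whether reads were counted by strand.

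The promoters of these 2 genes are shown because they had the largest steps up to day 4 among the tested genes of the list. Each line gives the 250 bases before the RefSeq start site, 5′ to 3′ on the gene's strand, from the RefSeq table of build GRCm38.p6; the reads were mapped to mm9, and no coordinates of that build are used. Capitals mark matches on either strand to the FOXO core GTAAACA, the E-box CACGTG, the hypoxia element cores ACGTG and GCGTG, and CCAAT. The E-box holds the core ACGTG within it.
Txnip, chr3:96557707-96557956, plus strand: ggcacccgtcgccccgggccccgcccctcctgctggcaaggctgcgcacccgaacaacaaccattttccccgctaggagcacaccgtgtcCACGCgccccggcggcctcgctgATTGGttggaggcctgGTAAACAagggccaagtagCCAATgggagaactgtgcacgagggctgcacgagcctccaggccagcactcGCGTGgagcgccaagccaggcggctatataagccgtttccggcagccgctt
Ccng2, chr5:93267323-93267572, plus strand: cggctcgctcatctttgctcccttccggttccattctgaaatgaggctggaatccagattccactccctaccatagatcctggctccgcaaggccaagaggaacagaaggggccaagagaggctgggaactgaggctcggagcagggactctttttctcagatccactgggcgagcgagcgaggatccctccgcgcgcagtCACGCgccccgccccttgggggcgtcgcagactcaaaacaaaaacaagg
The Txnip window held the FOXO core from 121 to 115 bases before the start, with a CCAAT match on each side, from 137 to 133 on the minus strand and from 102 to 98 on the plus strand. It also held GCGTG at 160 to 156 and at 51 to 47 bases before the start. In the Ccng2 window the only match was GCGTG on the minus strand, 49 to 45 bases before the start. Among the 9 RefSeq windows of the 8 genes (Sesn1 has 2), the FOXO core was found in 1, that of Txnip, while 3.17% of all 32851 promoter windows of the same length hold it. GCGTG was in 7 of the 9 windows (28.2% of all windows), CCAAT in 6 (33.8%), and CACGTG and ACGTG in 1 each, that of Irs2 (6.02% and 16.6%). The 9 windows held 53.6% to 76.4% G and C, and the windows behind these shares were not matched for that. A match describes letters in these windows and not a bound site, and no match leaves other positions unsearched.

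Foxo3 encodes one of the FOXO factors themselves. Its levels were 113, 109 and 99.7 normalized counts at day 2, 153, 131 and 160 at day 4, and 96.8, 96.4 and 119 at day 6, against 102, 106 and 98.1 in the control. The day 4 libraries were above all others, and the remaining 3 groups overlapped in the order day 2, day 6, control. Foxo3 rose at day 4 with 148 ± 15.2 against 102 ± 3.83 in the control, a log2 change of 0.53 ± 0.15 (adjusted p 0.0257 by limma). That call was lost without day 4 replicate 1 or 3 or without any of the control libraries (adjusted p 0.0547 to 0.0758). Day 6 against day 4 came to -0.50 ± 0.15 (adjusted p 0.0585), and day 4 against day 2 to 0.45 ± 0.15 (adjusted p 0.0751). The first of these did pass among rows averaging 20 normalized counts or more (adjusted p 0.0438) and without day 6 replicate 3 (adjusted p 0.0357).

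Foxo1, the family member studied most in embryonic stem cells, was low. It had 10.1, 11.4 and 14.2 normalized counts at day 2, 13.9, 21.7 and 12.2 at day 4, and 12.01, 10.9 and 13.3 at day 6, against 6.04, 19.3 and 7.72 in the control. All 4 groups overlapped, and control replicate 2 stood far above the other control libraries. Only 7 to 21.4 reads stood behind each value. The log2 change at day 4 against the control was 0.61 ± 0.38 (adjusted p 0.304 by limma), and no comparison of Foxo1 passed. The antisense gene Gm20402 and the unclassified gene Gm38034 overlap Foxo1 in the GENCODE M21 annotation of GRCm38, neither of which has a row of its own.

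Pik3ip1 and Irs2 act at the top of the pathway, on opposite sides. Pik3ip1 encodes a membrane protein that inhibits PI3 kinase. It had 3.36, 2.27 and 1.42 normalized counts at day 2 and 11.1, 6.84 and 9.78 at day 4 of the TUNA hairpin. Day 6 replicates 1 and 2 were listed at 0 and replicate 3 had 3.79, against 2.59 and 1.10 in control replicates 1 and 3, with control replicate 2 listed at 0. The day 4 libraries were above the other 9, from 6 to 17 reads, where the others had 4 reads or fewer. In the fit without a filter Pik3ip1 was higher at day 4 than in the control (adjusted p 0.0317 by limma, where 7.78% of rows were called and 3.99% higher). It was lower at day 6 than at day 4 (adjusted p 0.0387, where 2.81% of rows were called and 1.58% lower). Leaving out a library ended each call in 5 of 6 cases (adjusted p up to 0.164 and 0.205), as did a fit of only the 2 groups (0.103 and 0.239) and a pseudocount of 0.5 (0.059 and 0.0575). No fold is given, since 3 of the 12 libraries are listed at 0. In these, day 6 replicates 1 and 2 and control replicate 2, 1 read was worth 0.7505, 0.7793 and 0.9198 units. A listed 0 stands for 1 normalized count or less, so it may hold 1 read there, while 1 read showed as 1.10 in control replicate 3. The part of this floor in the calls was not tested.

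Irs2 encodes an adaptor that carries the insulin and IGF receptor signal to PI3 kinase, and its gene is a FOXO target that restores the pathway when the signal is low. It had 2.24, 3.41 and 2.85 normalized counts at day 2, 3.91, 5.70 and 3.67 at day 4, and 12.8, 5.65 and 10.4 at day 6, against 1.73, 2.76 and 5.51 in the control. The order was day 6, day 4, control, day 2; day 6 lay above the control and day 2 but overlapped day 4. Its log2 change at day 6 against the control was 1.32 ± 0.51 without a filter and did not pass (adjusted p 0.2 by limma, where 3.61% of rows were called). Counts of 2 to 17 reads limit what can be seen here.

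The sestrins restrain mTORC1, the growth kinase complex that senses amino acids. Sesn1 is also a p53 target, and Sesn3 is a FOXO target known to lower oxidants. Sesn1 had 41.4, 25.0 and 42.7 normalized counts at day 2, 37.5, 42.0 and 42.6 at day 4, and 16.2, 16.9 and 19.8 at day 6, against 47.0, 21.1 and 32.9 in the control. The day 6 libraries were the lowest 3 of the 12 and the other groups overlapped. Sesn1 fell at day 6 with 17.6 ± 1.92 against 40.7 ± 2.79 at day 4 (log2 change -1.16 ± 0.28, adjusted p 0.0187 by limma), a call lost without day 6 replicate 1 or 2 or day 4 replicate 2 (adjusted p 0.05075 to 0.0774). Against the control, day 6 came to -0.83 ± 0.28 (adjusted p 0.0892), which passed only without control replicate 2 (adjusted p 0.0312). Against day 2 it came to -0.97 ± 0.28 (adjusted p 0.0546), which passed only without day 2 replicate 2 (adjusted p 0.0403). The summed fibroblast markers were highest in the same day 6 libraries, through Acta2 and Tagln with the collagens at 0; their part in the lower level of Sesn1 was not tested.

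Sesn3 had 6.72, 5.68 and 4.27 normalized counts at day 2, 18.2, 9.32 and 11.8 at day 4, and 5.92, 9.26 and 5.69 at day 6, against 5.14, 4.44 and 3.12 in the control. The day 4 libraries were above all others, although day 4 replicate 2 barely exceeded day 6 replicate 2. Its log2 change at day 4 against the control was 1.40 ± 0.44 without a filter and did not pass (adjusted p 0.0601 by limma), though it did with a pseudocount of 5 (adjusted p 0.0375) and without day 4 replicate 2 (adjusted p 0.0421). Sesn2, the third sestrin, rose against the control at day 4, with 29.0 ± 1.29 against 15.7 ± 2.58 (log2 change 0.85 ± 0.25, adjusted p 0.0278). It also rose at day 6, with 29.4 ± 3.93 against the same control (0.87 ± 0.25, adjusted p 0.0463 by limma). The day 4 call of Sesn2 was lost without any of 5 libraries (up to 0.0996) and the day 6 call without any of 6 (up to 0.155). Sesn2 had 28.6 ± 7.63 normalized counts at day 2, which did not pass against the control (0.80 ± 0.25, adjusted p 0.170 by limma).

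**Figure D1:**
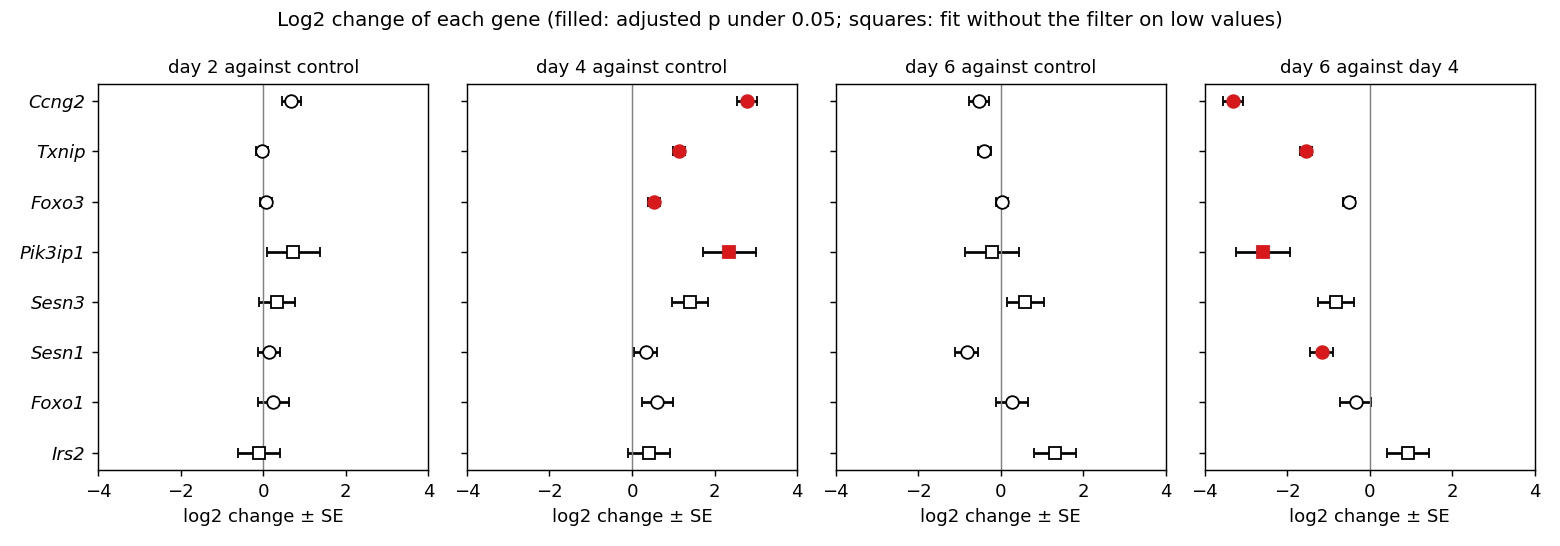
Each panel plots the log2 change of the 8 genes in 1 comparison (horizontal axis, log2 scale) with its standard error. Circles are genes of the fit with the filter on low values and squares those of the fit without it, and filled symbols passed an adjusted p of 0.05. Ccng2 moves from 2.78 at day 4 against the control to -3.31 at day 6 against day 4, and no symbol is filled at day 2 or day 6 against the control.

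The genes whose levels ran most closely with Ccng2 over the 12 libraries were looked up among 3260 rows averaging 50 normalized counts or more. They were Nampt, an enzyme of NAD synthesis (Pearson r 0.97 on the log2 scale), Slc25a36, a mitochondrial nucleotide carrier (0.967), the processed pseudogene Gm6560 (0.961), P4ha1, a collagen prolyl hydroxylase subunit (0.957), and Pgk1, a glycolytic kinase (0.95). Each also had its highest mean at day 4: Nampt had 177 ± 3.97, 288 ± 5.54 and 143 ± 8.70 normalized counts at days 2, 4 and 6, against 159 ± 21.7 in the control. P4ha1 had 67.9 ± 12.7, 165 ± 12.5 and 53.6 ± 9.89, against 59.8 ± 9.39 in the control. Reads of Gm6560 may belong to the gene it was copied from. Within the list, Ccng2 was most like Txnip (r 0.929), Foxo3 (0.853) and Pik3ip1 (0.789), and least like Irs2 (-0.256). These r values describe 12 libraries in 4 groups, share depth and scaling within a library, and follow the group means. The genes were picked by this likeness, so it is no test.

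Genes around the list were counted from 6 pathway lists, whose counts stand beside 6.99% of all tested genes called higher and 7.76% called lower at day 4 against the control, and 3.07% and 3.15% at day 6. Among FOXO family members and regulators, 12 of 14 were tested; at day 4 against the control 1 was higher and 3 were lower, where 14.7% of all tested genes were called in either direction (median log2 change -0.15, beside -0.01 for all genes). The falls were led by Sirt1, a deacetylase that acts on FOXO proteins, with 179 ± 6.34 against 371 ± 28.8 normalized counts (-1.04 ± 0.13, adjusted p 8.26e-05 by limma), and Sgk1, an AKT-related kinase that phosphorylates FOXO3, with 235 ± 67.7 against 484 ± 6.09 (-1.08 ± 0.17, adjusted p 0.0004). Sgk1 was low at day 6 as well, at 269 ± 15.2 against 484 ± 6.09 in the control (adjusted p 0.00457), and these calls held with each of the 6 libraries left out. Sirt1 at day 6, at 270 ± 18.7, passed against the control (-0.46 ± 0.13, adjusted p 0.0463) but not with any of the 6 libraries left out (0.0566 to 0.159). The factor Foxo4 did not pass at day 4, with 19.7 ± 4.55 normalized counts against 30.9 ± 6.16 in the control (-0.63 ± 0.25, adjusted p 0.0992 by limma). Xpo1, the exportin that carries FOXO proteins out of the nucleus, was higher at day 4 (0.52 ± 0.13, adjusted p 0.0150), and Ywhag, a 14-3-3 protein, lower (-0.63 ± 0.19, adjusted p 0.0361); leaving out 1 library ended the first call in 2 cases (up to 0.0783) and the second in 3 (up to 0.180).

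Of 26 other reported FOXO targets 13 were tested, and at day 4 against the control 0 were higher and 2 lower (median 0.10). The rest of the 26 missed the filter on low values and are not covered by these counts. A count of 2 in 13 lies near the 14.7% of all tested genes called there. The lower ones were Ccnd1, cyclin D1, which FOXO factors are known to repress, and Sod2, the mitochondrial superoxide dismutase. Ccnd1 had 41.3 ± 7.66 normalized counts at day 4 against 80.9 ± 10.5 in the control (-0.96 ± 0.18, adjusted p 0.00205 by limma). It rose at day 6 to 91.4 ± 11.9, against 41.3 ± 7.66 at day 4 (1.13 ± 0.18, adjusted p 0.00116 by limma). Its lowest mean thus fell on the day of the highest Ccng2 mean, and both calls held with each library left out. Whether FOXO factors had a part in the level of either gene was not tested. Sod2 had 37.1 ± 4.55 against 64.4 ± 8.12 (-0.78 ± 0.22, adjusted p 0.0216), lost without any of 4 libraries (up to 0.0915). Cdkn1b, the cell cycle inhibitor p27, had 47.8 ± 10.2 at day 6 against 85.4 ± 14.7 at day 4 (-0.83 ± 0.20, adjusted p 0.0191), lost without any of 3 libraries (up to 0.0715). At day 6 against the control 0 of 13 passed, higher or lower, also by limma (median -0.20).

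In the PI3K and AKT list 14 of 21 were tested, with 1 higher and 0 lower at day 4 against the control (median 0.15; 14.7% of all tested genes called) and 1 of each at day 6 (median 0.13; 6.21% called). The change that held with each library left out was that of Inpp5d, the phosphatase SHIP1, which had 14.0 ± 5.18 normalized counts at day 6 against 41.7 ± 8.43 in the control (-1.55 ± 0.28, adjusted p 0.00287 by limma). Pik3r1, a regulatory subunit of PI3 kinase, was higher at day 4 with 21.2 ± 8.60 against 9.44 ± 1.91 (1.04 ± 0.34, adjusted p 0.0471), and Akt1 at day 6 with 29.2 ± 1.55 against 13.1 ± 3.42 (1.13 ± 0.33, adjusted p 0.0479). The call of Pik3r1 was lost without any of 5 libraries (up to 0.178) and that of Akt1 without any of 6 (up to 0.162).

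In the sestrin and mTORC1 list 18 of 21 were tested, with 3 higher at day 4 (median 0.20; 6.99% of all tested genes higher) and 2 at day 6 (median 0.11; 3.07% higher) against the control, and 0 lower on either day. Among those counted at day 4, Mios passed the filter on low values only through its day 4 libraries, so its call is not used as a result. The other genes called higher at day 4 were Sesn2 and Ddit4, and the count and median of that day include Mios. Ddit4, also called REDD1, an mTORC1 inhibitor induced by low oxygen and by p53, rose at day 4, to 83.6 ± 26.4 normalized counts against 14.4 ± 1.29 in the control (2.41 ± 0.27, adjusted p 3.14e-05 by limma). At day 6 it fell to 16.6 ± 3.04, against 83.6 ± 26.4 at day 4 (-2.23 ± 0.27, adjusted p 9.56e-05). Rragd, a Rag GTPase, was called at day 6, with 23.8 ± 5.49 against 5.24 ± 3.44 in the control (2.14 ± 0.54, adjusted p 0.0225), lost without any of 4 libraries (up to 0.110). At day 4 Rragd had 14.6 ± 4.91 and did not pass against the control (1.45 ± 0.54, adjusted p 0.0805 by limma). Mios had 13.9 ± 1.46 normalized counts at day 4 against 5.38 ± 0.729 in the control.

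Relatives of TXNIP and the thioredoxin system gave 7 tested genes of 12. Arrdc3, an arrestin-domain protein of the same family as TXNIP, was the one gene called, at day 2 and day 4 against the control (0.412% and 6.99% of all tested genes higher). It had 372 ± 21.1 normalized counts at day 2, 452 ± 71.7 at day 4 and 224 ± 17.5 at day 6, against 212 ± 16.6 in the control. It rose already at day 2 (0.81 ± 0.14, adjusted p 0.00988 by limma), where Txnip had a log2 change of -0.03 ± 0.15, although that call was lost without any of 4 libraries (up to 0.0601). At day 4 it stood at 1.08 ± 0.14 (adjusted p 0.000112), and at day 6 it fell against day 4 (-1.003 ± 0.14, adjusted p 0.000383), both with each library left out. The medians of the list were -0.11, -0.01 and -0.13 at days 2, 4 and 6 against the control.

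Among relatives of cyclin G and subunits of the phosphatase PP2A, which cyclin G proteins bind, 10 of 11 were tested, with 2 higher and 1 lower at day 4 (median -0.11), where 6.99% of all tested genes were higher and 7.76% lower. Ccng1, cyclin G1, a p53 target, had 1125 ± 211 normalized counts at day 4 against 589 ± 65.5 in the control (0.92 ± 0.16, adjusted p 0.00123 by limma). It stayed above the control at day 6, with 1001 ± 187 (0.75 ± 0.16 against the control, adjusted p 0.00974; 0.0535 without control replicate 1). Ccni was higher at day 4 (0.70 ± 0.20, adjusted p 0.0264) and Ppp2r5a, a PP2A regulatory subunit, lower (-0.53 ± 0.15, adjusted p 0.0230), each lost without any of 4 libraries (up to 0.113 and 0.0920).

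**Figure D2:**
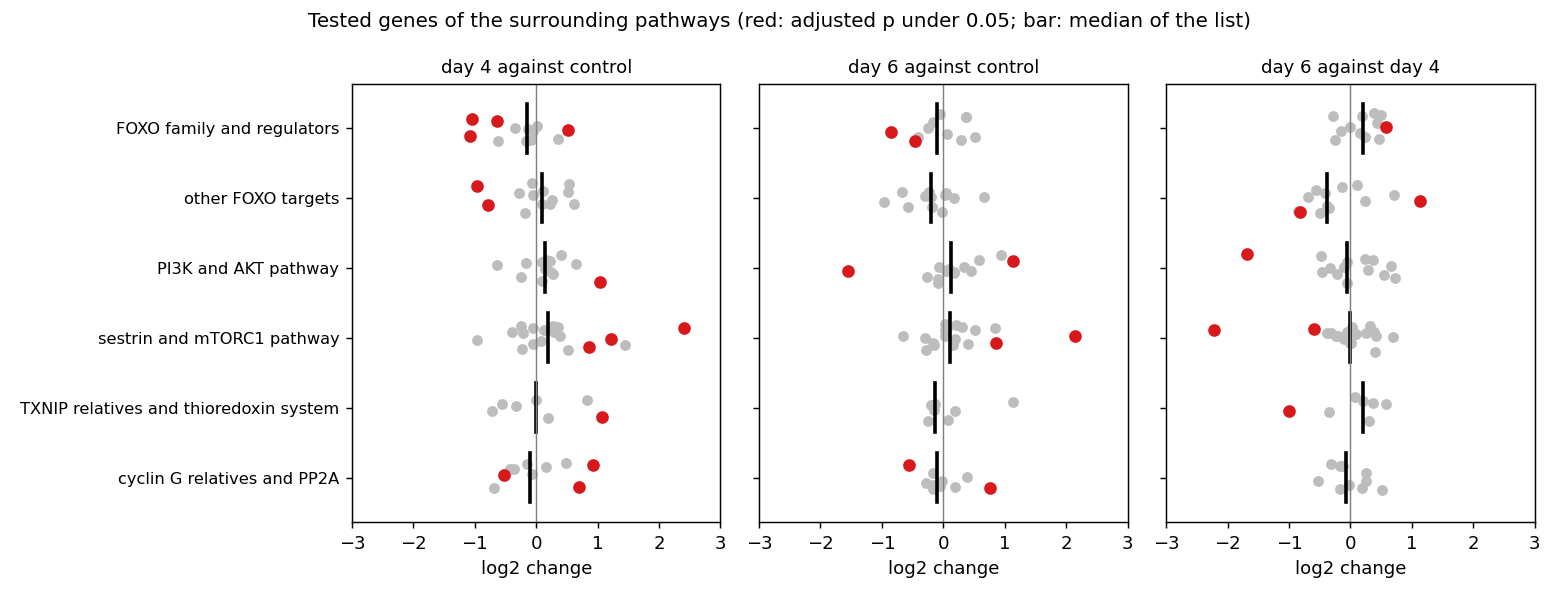
Each point is 1 tested gene of a pathway list, placed by its log2 change (horizontal axis, log2 scale) in the comparison named above the panel; red points passed an adjusted p of 0.05 and black bars are list medians. The list medians lie between -0.39 and 0.21 in these 3 comparisons, while Ddit4 reaches 2.41 at day 4.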

How the data were processed

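The authors deposited log2 normalized counts for 12 libraries of total RNA, with 37477 gene symbols; the submitters' processing notes name BWA, DESeq and the mouse build mm9 and give neither versions nor the role of each. A log2 value of 0 in the deposited table means a normalized count of 1 or below; it was set to 0 here, so group means that hold one are lower bounds. Reads were recovered from the smallest steps between values, and 43.8% to 56.8% of values under 20 reads were whole within 0.02, so no count test was run. Adjusted p-values come from limma 3.58.1 in R 4.3.3 on log2(value + 1), a scale that understates changes of low genes. The model gave each of the 4 groups a mean, used all 12 libraries and let the variance follow intensity (8 residual and 9.48 prior degrees of freedom). The text names the 8 genes, called genes of the pathway lists, Foxo4 as another FOXO factor and the 5 rows most like Ccng2. All were chosen with earlier results of these data known. Alternatives covered 2 scalings, 2 filters, pseudocounts of 0.5 and 5, limma-voom weights, the 2 groups alone, a replicate block and single libraries left out. Plots were made in Python 3.11.15 with matplotlib 3.10.9.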

Additional observations from a re-analysis of the deposited data

Results flagged for a closer look

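The change against the control differed between day 6 and day 4 for 3 of the 5 tested genes, by the test of that difference itself (day 6 against day 4, limma with Benjamini-Hochberg adjustment; the control cancels out of it), where 5.58% of all tested genes were called and 2.94% were lower. The difference was -3.31 on the log2 scale for Ccng2 (adjusted p 4.27e-07), -1.54 for Txnip (adjusted p 1.42e-05) and -1.16 for Sesn1 (adjusted p 0.0187). All 3 day 6 libraries lay below all 3 day 4 libraries for each of these genes, which describes the same values as the calls and is no further test. The call of Sesn1 was lost without any of 3 libraries (adjusted p 0.05075 to 0.0774), while those of Ccng2 and Txnip held with each library left out.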

How the results depend on the processing

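The calls of Ccng2 and Txnip at day 4 against the control, at day 4 against day 2 and at day 6 against day 4 kept their direction and passed under every alternative and with each library left out. Without a filter the day 2 comparison called 52 genes in place of 84, and with only the 2 groups day 6 against day 4 called 197 in place of 488. With 1 library left out, the genes called against the control numbered between 18 and 44 on day 2, between 821 and 1298 on day 4 and between 304 and 565 on day 6. They numbered between 338 and 744 for day 4 against day 2, between 236 and 457 for day 6 against day 4, and between 169 and 392 for day 6 against day 2. These fits hold fewer libraries. The members called then ranged from 2 to 3 at day 4 and 0 to 1 at day 6 against the control, from 2 to 4 for day 6 against day 4 and from 1 to 2 for day 6 against day 2. Values that changed sign when 1 library was left out were all uncalled. At day 2 against the control they lay between -0.0587 and 0.71 for Foxo1, -0.15 and 0.41 for Sesn1, -0.10 and 0.0144 for Txnip, and -0.38 and 0.25 for Irs2 (0.0219 without day 2 replicate 1). At day 6 against the control they lay between -0.0307 and 0.73 for Foxo1, -0.0743 and 0.0735 for Foxo3, and -0.97 and 0.22 for Pik3ip1. At day 4 against day 2 Sesn1 lay between -0.0477 and 0.33. At day 6 against day 2 Foxo1 lay between -0.075 and 0.16 and Foxo3 between -0.15 and 0.00023. Deviations from the group means correlated above 0.1 in 3 of 18 pairs of libraries with the same replicate number (from -0.277 to 0.328). Among pairs with other numbers they did so in 5 of 36 (from -0.331 to 0.315), so some pairs of either kind deviated together. A replicate block moved the calls from 1289 to 1219 at day 4 against the control and changed no call of the 8 genes. Among the pathway genes named, the calls of Akt1, Sesn2 and Sirt1 at day 6 and of Ccni, Pik3r1, Ppp2r5a and Ywhag at day 4 against the control, and of Cdkn1b at day 6 against day 4, were also lost under another setting that kept all libraries of both groups (highest adjusted p 0.116, for Sirt1 with only the 2 groups). Fits without a filter combined with other choices were added after seeing the data. Depth limits Pik3ip1, Irs2, Sesn3 and Foxo1, which rest on few reads.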
